A study of Homo sapiens with 8 samples.

Results

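The end of the long arm of chromosome 17, band 17q25.3, was examined for RNA bound by RBPMS in human embryonic stem cells. Its members were all listed peaks on chromosome 17, of either strand, whose deposited start lay at 76200000 or beyond on build hg19. There were 1726 of them among the 194003 peaks of the 4 lists. A peak here is a stretch of transcribed RNA, written as genome positions with a strand, over which reads piled up.

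The series holds 4 eCLIP libraries and 4 input libraries from HUES6, an established human embryonic stem cell line. All were wild type (WT), labelled as control treatment and grown in FTDA medium, and all came from dishes of cells irradiated with UV light at 400 mJ/cm2. The eCLIP libraries hold RNA pulled down with an RBPMS-specific antibody, and the input libraries were made with no antibody. Only the eCLIP libraries have a peak list, and input enters through the authors' log2 fold and −log10 p of each peak. A single line was used, and no label says whether each library had a culture of its own, so p-values measure the spread between these libraries, which may be technical. Stem cell markers were not looked up, since peak lists give binding over input and no expression level.

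RBPMS is an RNA-binding protein with an RNA recognition motif that is known for binding paired CAC trinucleotides and for regulating alternative splicing in smooth muscle. In eCLIP, UV light joins protein to the RNA it touches, the protein is pulled down, and the reads of the attached RNA are set against those of input. Band 17q25.3 is known as a gene-dense stretch, whose genes include ACTG1 for cytoplasmic gamma actin, FASN for fatty acid synthase and RPTOR for a subunit of the mTORC1 growth kinase complex. These genes are named as background. No hg19 annotation or genome was at hand, so no peak was assigned to a gene, an exon, an intron or a UTR, the gene density was not measured, and no sequence is shown. Regions are therefore named by strand and position.

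Libraries 1, 2, 3 and 4 listed 286, 1010, 198 and 232 peaks at this end, with median widths of 50.5, 52, 45.5 and 53 bases. The long list of library 2 is a feature of the whole series, where it had 118375 of the 194003 peaks. Read numbers worked out from the deposited values gave a median of 3, 5, 4 and 5 immunoprecipitation reads at this end. These medians are over the 268, 534, 183 and 194 peaks of libraries 1 to 4 whose reads could be recovered. Peaks not above input, or with a −log10 p below 0.3, were left out, so the medians cover unlike parts of the 4 lists. Libraries 3 and 4 were compared over 314 matched peaks of the whole series. A match had to overlap by at least 80% of the longer peak, with at least 40 recovered reads in both together. Peaks with a −log10 p of 15.66 or more did not enter. The reads differed by no more than sampling noise (a chi-square test of the reads gave 0.962 for each degree of freedom and p = 0.675). The other pairs of libraries gave 3.02 to 4.96. Libraries 3 and 4 were therefore counted as 1 sample, and a mean ± SD is over n = 3 samples.

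At the inner border of the stretch the nearest peaks on either side were not enriched. The first peaks inside it, all from library 2 and on the plus strand, started at 76200866, 76201441 and 76203101 with log2 folds of 1.06, -0.26 and 0.06. The last peaks outside started at 76190569 in library 2 and 76180968 in library 4, with log2 folds of 2.06 and 2.13. None of these reached the thresholds below.

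The first comparison asked how often a listed peak at this end stood above input. A peak was called enriched at a log2 fold of at least 3, which is 8-fold over input, and a −log10 p of at least 3. At the end of 17q, 56, 77, 46 and 56 peaks were enriched in libraries 1 to 4, together 235. That is 19.6%, 7.62%, 23.2% and 24.1% of its listed peaks. The Wilson 95% intervals run from 15.40% to 24.6% in library 1, from 6.14% to 9.43% in library 2, from 17.9% to 29.6% in library 3 and from 19.1% to 30.0% in library 4. Over all listed peaks of the series the shares were 15.9%, 5.38%, 12.6% and 12.7%. The intervals cover counting error only, since neighbouring peaks are not independent. All 4 libraries thus had a higher share at this end, with the smaller gaps in libraries 1 and 2.

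Enriched peaks made up 16.96% ± 8.34 (SD, n = 3) of listed peaks at the end of 17q and 11.3% ± 5.38 in the rest of the genome. The difference was 5.70 ± 4.78 percentage points, and it was 3.68, 2.26, 10.8 and 11.6 points in libraries 1 to 4. Against the rest of chromosome 17, which stood at 8.80% ± 4.12, the difference was 8.16 ± 4.77 points, with 7.88, 3.54, 11.9 and 14.3 points in libraries 1 to 4. Both differences were positive in 4 of 4 libraries (an exact permutation test, two-sided, that flips the signs of the 3 samples' differences, p = 0.25 each, the smallest that 3 samples can give, and 0.333 after Benjamini-Hochberg adjustment over 4 differences). The design can therefore not place them beyond the spread between samples. An excess near chromosome ends in general was already known from these lists when the stretch was chosen, so this is no independent support for it.

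The end of 17q was also set against 3 other chromosome ends that are known as gene-dense. The outer 5 Mb of 19p, 16p and 9q served for this, and the share was 16.96% ± 8.34 at the end of 17q and 16.7% ± 7.14 in these 3 together. The difference of 0.30 ± 2.64 points (SD, n = 3) was -1.61, -0.81, 1.89 and 4.72 in libraries 1 to 4 (exact two-sided sign-flip permutation test, p = 1.0, adjusted 1.0). Its sign turned to -1.47 points at a log2 fold of at least 1, to -0.82 at a −log10 p of at least 5 and to -0.17 without library 4. Taken singly, the ends of 19p, 16p and 9q stood at 17.1% ± 8.82, 17.1% ± 6.44 and 15.5% ± 7.96 (SD, n = 3).

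**Figure D1:**
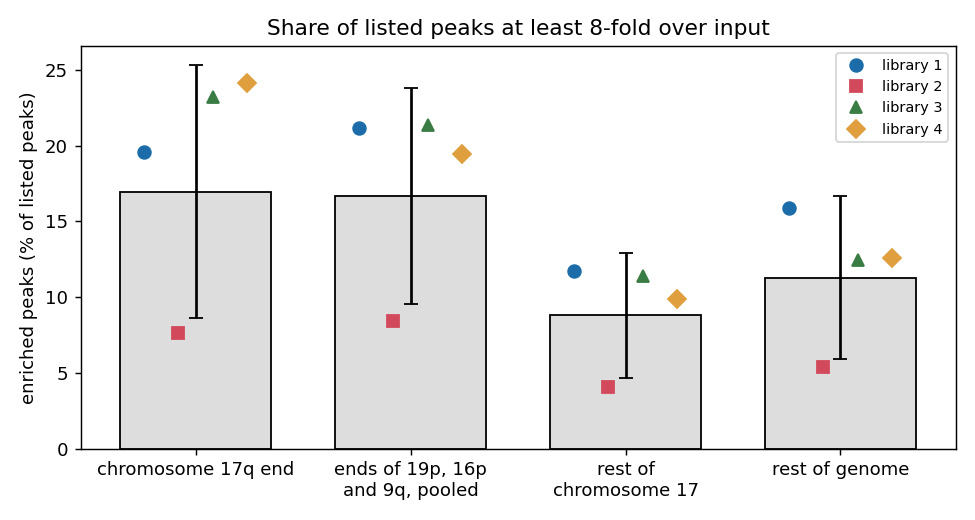
Enriched peaks as a percent of listed peaks (y axis) at the end of chromosome 17q, at 3 other chromosome ends pooled, on the rest of chromosome 17 and in the rest of the genome. Bars are means over 3 samples with the SD as error bar and points are the 4 libraries; each library is higher at the 17q end than on the rest of chromosome 17, and library 2 is the lowest everywhere.

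The shares were also set side by side by read number. A peak with 3 or 4 immunoprecipitation reads cannot reach the p threshold, and the enriched peaks with recovered reads at this end had at least 7, 14, 8 and 10 in libraries 1 to 4. Among peaks with at least 20 immunoprecipitation reads, recovered as a single value below the p ceiling, 23 of 24 were enriched at the end of 17q in library 1, 52 of 85 in library 2, 14 of 14 in library 3 and 27 of 28 in library 4. These are 95.8%, 61.2%, 100% and 96.4%, where the rest of the genome had 84.2%, 49.2%, 77.5% and 77.3%. With at least 10 such reads asked for, the difference was 12.2 ± 2.98 points from the rest of the genome and 11.4 ± 2.64 points from the 3 other ends, positive in 4 of 4 libraries each (SD, n = 3, exact sign-flip permutation p = 0.25 each). These values cannot be read as a larger difference at equal depth. The filter acts on the numerator of the fold, and it leaves out every enriched peak whose −log10 p stood at the ceiling or at 400. At the end of 17q that took 8, 13, 7 and 12 enriched peaks at the ceiling and 0 at 400 in libraries 1 to 4, of 56, 77, 46 and 56. At the 3 other ends it took 24, 72, 28 and 58 at the ceiling and 39, 25, 3 and 6 at 400, of 321, 307, 140 and 187. The setting for the other ends was chosen after seeing the data, and the part of depth in the differences was not tested.

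The height of the enriched peaks was compared as a description. Their median log2 fold was 4.73, 4.65, 4.54 and 4.45 in libraries 1 to 4 at the end of 17q, and 4.47, 4.15, 4.54 and 4.45 in the rest of the genome. Libraries 3 and 4 thus had the same medians in both, and only libraries 1 and 2 were higher at the end of 17q. The means were 4.62 ± 0.12 at the end of 17q, 4.56 ± 0.20 at the 3 other ends and 4.37 ± 0.20 in the rest of the genome (SD, n = 3). Their highest log2 folds at this end were 7.02, 7.04, 6.33 and 6.77 outside the run described below as plus 11 to plus 15, which alone exceeded them, with 7.99 in library 2 and 7.43 in library 3. In all, 1.05%, 18.2%, 2.53% and 5.17% of the peaks at this end lay below input. Over all listed peaks of the series these shares were 2.84%, 15.6%, 4.29% and 7.42% in libraries 1 to 4. Just inside the thresholds the lowest log2 fold was 3.06 and the lowest −log10 p 3.004. Just outside, 2.999 was the highest log2 fold with a sufficient p, and 2.98 the highest −log10 p with a sufficient fold. A further 184 peaks reached the fold but not the p.

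Enriched peaks were unevenly spread along the stretch. The outermost 500 kb, from 80700000, held 95 of the 235 enriched peaks, and the 500 kb from 78700000 held 53. In these 2 windows 36.2% ± 13.2 and 38.0% ± 18.8 of listed peaks were enriched (SD, n = 3), with 16, 29, 24 and 26 and with 12, 19, 10 and 12 enriched peaks in libraries 1 to 4. The 500 kb between 79200000 and 79699999 were the opposite case, with 188 listed peaks and 1 enriched, in library 1. From 77200000 to 77699999 only 13 peaks were listed, 9 in library 2 and 4 in library 3, and 0 were enriched.

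**Figure D2:**
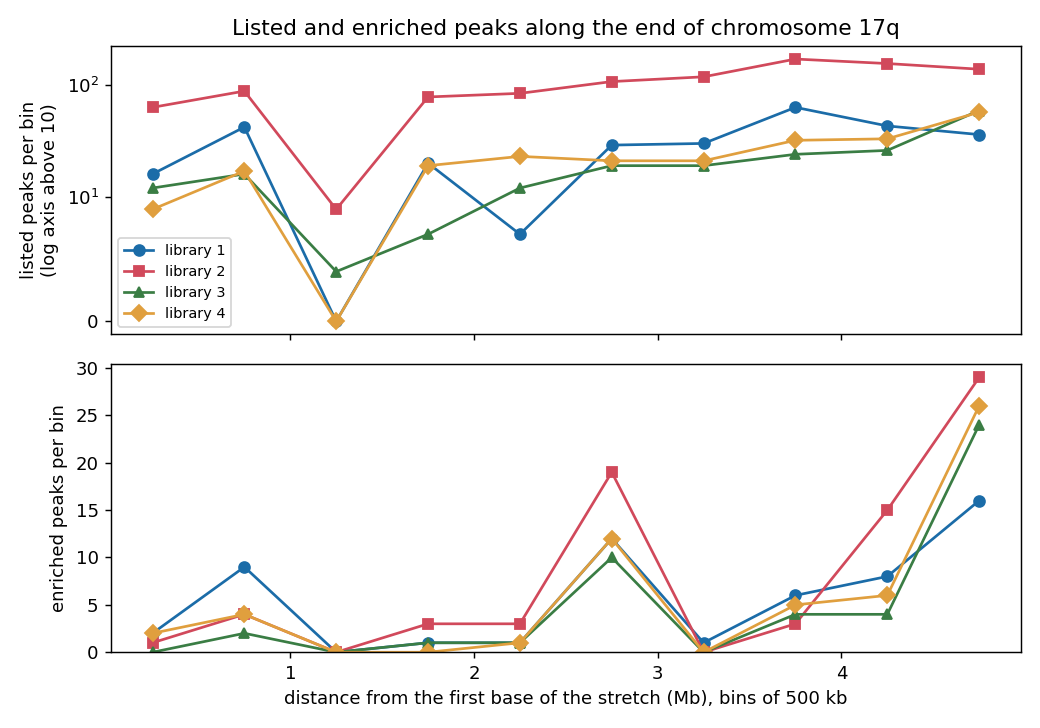
Listed peaks (upper panel, log axis above 10) and enriched peaks (lower panel) per 500 kb bin against the distance from the first base of the stretch, in Mb, for the 4 libraries. In the lower panel the sixth and the last bin hold 53 and 95 enriched peaks over the 4 libraries, and the third and seventh hold at most 1.

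Strands were compared within the stretch, since the rule takes both. On the plus strand 26 of 119, 52 of 524, 29 of 98 and 34 of 137 listed peaks were enriched in libraries 1 to 4, against 30 of 167, 25 of 486, 17 of 100 and 22 of 95 on the minus strand. The share was 19.7% ± 8.85 on the plus strand and 14.4% ± 8.08 on the minus strand, a difference of 5.26 ± 1.67 points that was positive in 4 of 4 libraries (SD, n = 3, exact two-sided sign-flip permutation p = 0.25, adjusted 0.333). Its sign was not the same in every setting. All peaks within 5 kb of each other were counted as 1, with only the highest log2 fold kept. The difference was then -4.98 ± 6.04 points and positive in 1 of 4 libraries. Without library 3 it was 3.44 points. With at least 10 recovered immunoprecipitation reads, a setting chosen after seeing the data and with the limits given above, it was 17.6 ± 6.55 points.

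The second comparison asked which enriched stretches recurred between libraries. Enriched peaks of 1 strand that overlapped by 1 base or more were joined into regions, and a region was called reproducible when at least 3 of 4 libraries had an enriched peak in it. Peaks that only abutted stayed apart, in the whole series as here, so neighbouring regions can be parts of 1 continuous stretch. The end of 17q had 84 regions. A single library accounted for 37 of them, 20 had enriched peaks of 2 libraries, 8 of 3 and 19 of all 4. Thus 27 of 84 were reproducible, or 32.1%, where 22.7% of the 7472 regions of the whole series were and 20.3% of the 276 on the rest of chromosome 17. They covered 5025 bases, and 26 of the 27 were enriched in all 3 samples. In the whole series 1260 of the 1699 reproducible regions were, and on the rest of chromosome 17 33 of 56. Of the 37 regions seen in 1 library, 21 came from library 2 and 10 from library 1, and 12 of the 37 had no listed peak in any other library. Asking for 2 of 4 libraries gave 47 regions.

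Of the 27 reproducible regions, 16 lay on the plus strand and 11 on the minus strand, and they are called plus 1 to plus 16 and minus 1 to minus 11 in order of position. Their widths ran from 73 to 705 bases with a median of 170. None had a listed peak on the opposite strand in any library. This was not worked out for the reproducible regions of the whole series, so it cannot be called particular to these 27. The log2 fold given for a region is that of its highest enriched peak in each library. Over the 19 regions enriched in all 4 libraries the mean log2 fold ran from 4.10 to 6.87 with a median of 4.97, and in the rest of the genome the 921 such regions had a median of 5.02. A mean of at least 6 was reached by 3 of the 19, or 15.8%, and by 15.2% of the 921.

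**Figure D3:**
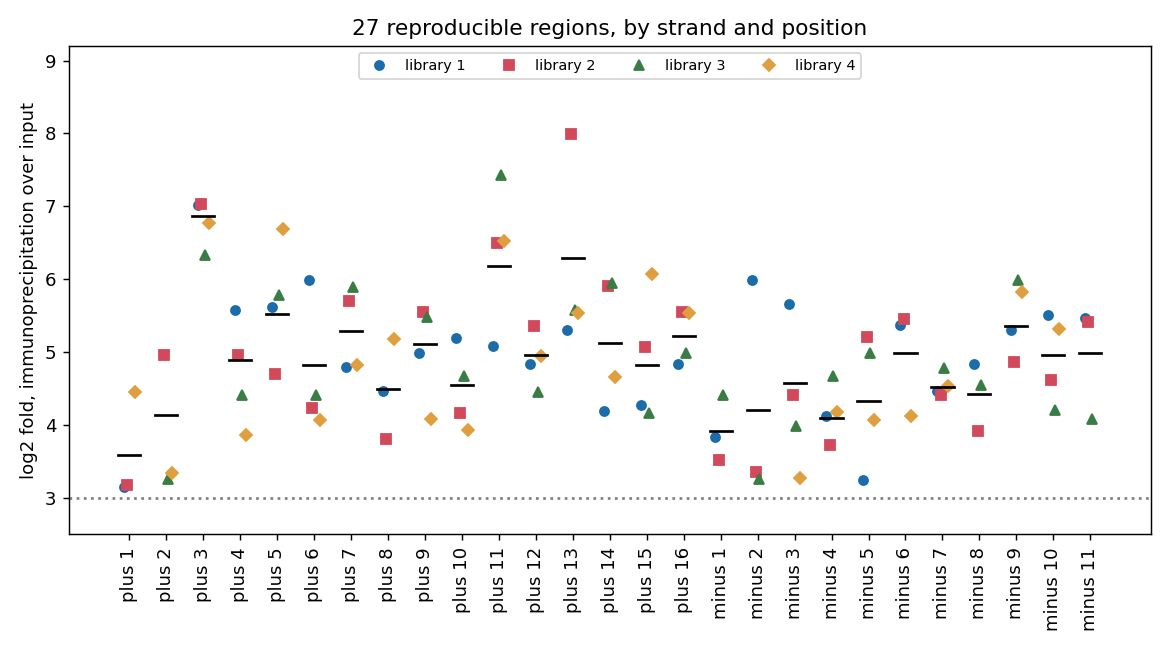
Log2 fold of immunoprecipitation over input (y axis) in the 27 reproducible regions, ordered by strand and position. Points are the 4 libraries, the black line is the mean over samples and the dotted line is the threshold of 3; plus 3 is the highest by its mean, at 6.87, and plus 13 spreads from 5.31 to 7.99.

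The highest region was plus 3, at 78717885 to 78718028. Its log2 fold was 7.02, 7.04, 6.33 and 6.77 in libraries 1 to 4, a mean of 6.87 ± 0.28 (SD, n = 3), which is 117-fold over input. Each library had a single peak there, and the 4 peaks shared 96 bases. The spread between libraries was small beside the height. Every p stood at 15.66, a value at which the deposited −log10 p stops wherever 1 of the read numbers is below 5, and the fold then fixes the reads only within limits, at 41 to 164, 126 to 504, 38 to 152 and 75 to 300 immunoprecipitation reads over 1 to 4 input reads. Plus 4, at 78718569 to 78718733, followed 540 bases on, with 5.57, 4.97, 4.41 and 3.86 and a mean of 4.89 ± 0.72. It rested on 15, 30, 10 and 10 reads over 1 input read in each library.

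A run, meaning neighbouring regions of 1 strand at most 1000 bases apart, was found 95.5 kb beyond plus 4. It comprised plus 5 to plus 9, from 78814186 to 78815868 on the plus strand, 5 regions in 1683 bases with 6, 8, 6 and 7 enriched peaks in libraries 1 to 4. The highest of them was plus 5 at 5.52 ± 0.77, with 5.62, 4.70, 5.79 and 6.69. Plus 7, from 78815356 to 78815566, had 4.796, 5.70, 5.89 and 4.83, a mean of 5.29 ± 0.46, and its highest peaks shared 84 bases between the 4 libraries. Their reads were 35, 50, 28 and 39 over 4, 1, 1 and 2 input reads. Plus 6 and plus 9 stood at 4.82 ± 1.01 and 5.11 ± 0.40. Plus 8, at 78815604 to 78815682, was enriched in libraries 1, 2 and 4 only, at 4.49 ± 0.69, and library 3 listed no peak there.

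The run with the most enriched peaks was plus 11 to plus 15, from 80785704 to 80787050 on the plus strand. Its 5 regions covered 90.9% of 1347 bases, all 5 were enriched in all 4 libraries, and every peak listed inside it was enriched, 8, 16, 12 and 13 in libraries 1 to 4. This run held 49 of the 235 enriched peaks of the stretch, or 20.9%, and plus 5 to plus 9 a further 27. Plus 11, the widest region at 705 bases, had 27 peaks and log2 folds of 5.08, 6.50, 7.43 and 6.52, a mean of 6.18 ± 0.98. The libraries put their highest peak at different places in it, library 4 at 80785897 to 80785988 and library 3 at 80786304 to 80786408, so the 4 highest peaks shared 0 bases. With the width-weighted mean of its peaks in place of the highest, plus 11 stood at 5.12.

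Within this run the highest single value was in plus 13, at 80786572 to 80786714. It had 5.31, 7.99, 5.58 and 5.54, a mean of 6.29 ± 1.48, and library 2 alone made it exceed plus 11. Library 1 had 25 reads over 2 input reads there, and library 2 had 243 to 972 over 1 to 4. Plus 12, at 80786438 to 80786571, was steadier, at 4.84, 5.36, 4.45 and 4.95 with a mean of 4.97 ± 0.35. Its counts were also the best resolved, with 36, 354, 62 and 127 immunoprecipitation reads over 4, 9, 6 and 6 input reads. Plus 14 and plus 15 stood at 5.13 ± 0.87 and 4.82 ± 0.47.

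Farther out, plus 16 lay 74.9 kb beyond this run, at 80861974 to 80862229. Its log2 fold was 4.84, 5.55, 4.99 and 5.54, a mean of 5.22 ± 0.36, from 9, 45, 15 and 32 reads over 1 input read in each library. All 4 libraries lay within 0.72 of each other. The last reproducible stretch of the chromosome was on the other strand, minus 9 to minus 11, from 81008629 to 81009191. It covered 98.2% of 563 bases in 3 regions, with 5, 4, 5 and 5 enriched peaks in libraries 1 to 4 and no other listed peak. The gaps between the regions were 0 to 10 bases, and minus 10 and minus 11 abut. Minus 9 had 5.31, 4.87, 5.99 and 5.83, a mean of 5.36 ± 0.52, and minus 10 stood at 4.97 ± 0.48. Minus 11 was enriched in libraries 1, 2 and 3 at 5.47, 5.42 and 4.09, and library 4 listed no peak in it.

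**Figure D4:**
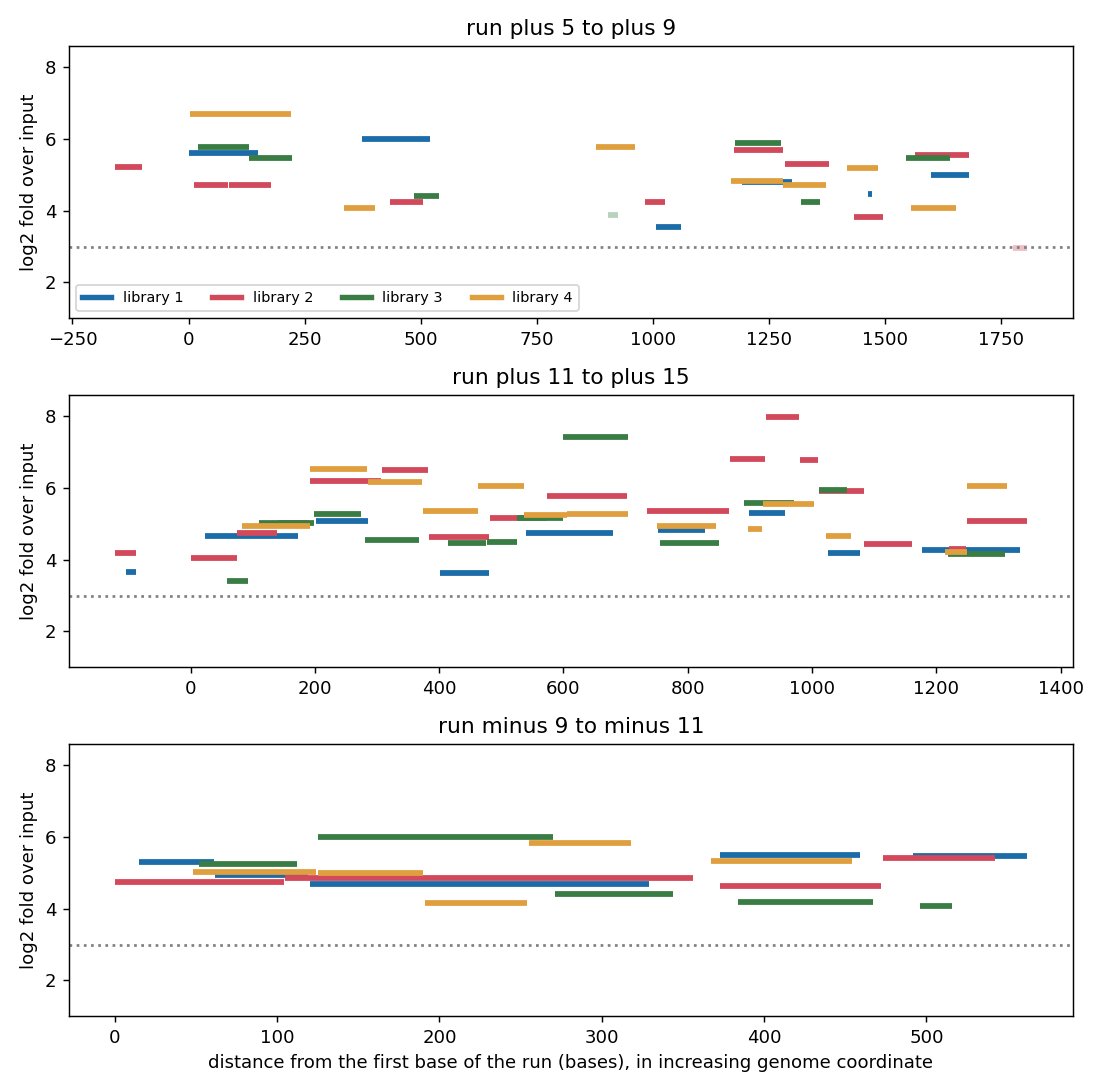
Peaks of the 3 runs with at least 3 regions, drawn from their first to their last base against the distance from the run's first base (x axis, bases) at their log2 fold over input (y axis). Colours are the 4 libraries, pale bars are listed peaks that were not enriched, and the dotted line is the threshold of 3; in the middle panel the run plus 11 to plus 15 is tiled by 8 to 16 peaks per library.

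The other minus strand regions formed pairs or stood alone. Minus 3 and minus 4, at 80104943 to 80105061 and 80105218 to 80105403, had 5.67, 4.42, 3.99 and 3.28 and 4.13, 3.73, 4.67 and 4.19 in libraries 1 to 4. Their means were 4.57 ± 1.02 and 4.10 ± 0.35. Minus 5, at 80355086 to 80355266, had 3.25, 5.21, 4.99 and 4.07, a mean of 4.33 ± 0.99, and library 1 was the lowest. Minus 7, at 80406796 to 80406916, was the most even region, at 4.47, 4.42, 4.79 and 4.54 with a mean of 4.52 ± 0.13. It rested on 7, 41, 13 and 16 reads over 1, 2, 1 and 1 input reads. Plus 10, at 80483734 to 80483945, stood alone on the plus strand at 5.19, 4.17, 4.67 and 3.94, a mean of 4.55 ± 0.56.

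Of the 5 lowest reproducible regions by mean log2 fold 1 was minus 4, and the other 4 were each called in 3 libraries. Plus 1, at 76409705 to 76409910, had 3.15, 3.18 and 4.45 in libraries 1, 2 and 4, a mean of 3.59 ± 0.74, and library 3 had no peak over it. Minus 1, at 76889615 to 76889737, had 3.84, 3.52 and 4.41 in libraries 1, 2 and 3, a mean of 3.92 ± 0.45, and library 4 listed a peak of 1.71 there. In minus 2, at 76968797 to 76969005, library 1 had 5.99 and libraries 2 and 3 had 3.36 and 3.26, a mean of 4.202 ± 1.55, while library 4 missed the fold with 2.74. Plus 2, at 78347091 to 78347264, had 4.97, 3.26 and 3.35 in libraries 2, 3 and 4, and library 1 just missed with 2.84. In each of these 4 regions 1 library stayed short of the call. Minus 6, at 80355715 to 80355806, was enriched in libraries 1, 2 and 4 at 5.37, 5.45 and 4.13, and library 3 reached the fold, 3.89, but not the p, 2.70. Minus 8, at 80621957 to 80622158, had 4.84, 3.92 and 4.54 in libraries 1, 2 and 3 and no peak in library 4.

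The third comparison asked how closely libraries agreed within the stretch. For the log2 folds of peaks that overlap, library 1 had a Pearson's r of 0.72 with library 2 (145 pairs of peaks), 0.73 with library 3 (72 pairs) and 0.70 with library 4 (90 pairs). Library 2 had 0.79 with library 3 (107 pairs) and 0.80 with library 4 (145 pairs), and libraries 3 and 4 had 0.77 (86 pairs). Where both peaks of a pair had a −log10 p of at least 3, r was lower in all 6 pairs of libraries. Library 1 then had 0.55 with library 2 (59 pairs), 0.20 with library 3 (38 pairs) and 0.19 with library 4 (52 pairs). Library 2 had 0.51 with library 3 (53 pairs) and 0.54 with library 4 (62 pairs), and libraries 3 and 4 had 0.34 (49 pairs). These are descriptions across peaks, which are no independent replicates. No library was always the lowest. Of the 19 regions enriched in all 4, library 1 was the lowest in 6, libraries 2 and 3 in 4 each and library 4 in 5. In 13 of the 19 the highest peaks of the 4 libraries shared at least 1 base. No values for the rest of the genome are given for this count or for r.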

How the data were processed

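The authors deposited 1 input-normalized peak list per eCLIP library, with a −log10 p and a log2 fold of immunoprecipitation over input per peak. The build is hg19, per the submitters' processing notes, and for the aligner and the peak caller the sources used here name none. Read numbers were worked out from each pair of values, as a ratio of whole numbers plus a constant per library. Their p had to match within 0.3%. It came from a chi-square test where both numbers were at least 5. Otherwise an exact binomial test was used, which stands in for Fisher's exact test when total reads are large. The working was checked on simulated reads, with p from the same formula and a known constant. That check cannot show whether the formula suits the deposited values. On those values the working gave unique numbers for 94.4% to 99.97% of the peaks tried. These were peaks above input with a −log10 p of at least 0.3 and below the ceiling of 15.66. An input of 0 and of 1 read cannot be told apart, and total reads per library are unknown. Values at 400 or at the ceiling have no order.

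Peaks were called enriched, merged and compared as given with each result, with scipy 1.17.1, numpy 2.4.6 and pandas 2.3.3 under Python 3.11.15. The members, thresholds and rules were chosen with earlier results of these data known. Named regions were to be the 20 highest by mean log2 fold among those enriched in all 4 libraries, of which there were 19, the runs of at least 3 regions and the 5 lowest; the other reproducible regions were added after their values were seen. Lists of genes and stem cell markers were set for use with an hg19 annotation and were not used. Alternatives tried were other thresholds, close peaks counted once, a read minimum, libraries taken singly and each library left out.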

Additional observations from a re-analysis of the deposited data

Results flagged for a closer look

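Of 31 quantities compared over the 4 libraries at the end of 17q, 2 had a library whose gap to the next exceeded Dixon's critical share of the range, 0.829, and chance gives about 1 in 20, or 1.55. The list of library 2 had 1010 peaks, and library 1 came next with 286. Over shared peaks of the whole series library 2 had 2.56 times the immunoprecipitation reads of library 1, and libraries 3 and 4 had 0.322 and 0.458 times those of library 2; the part of depth in the length of the list was not tested. In region plus 13 library 2 had a log2 fold of 7.99 and the next highest, library 3, had 5.58. The peak of library 2 there stood at the p ceiling over 1 to 4 input reads.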

How the results depend on the processing

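No paired analysis was possible because no separate values were given for the input libraries whose numbers match those of the eCLIP libraries. The differences from the rest of the genome and from the rest of chromosome 17 stayed positive in all 4 libraries under every alternative run, at 4.82 to 12.2 and 7.11 to 17.5 points, the highest of each with the read minimum, which selects on the numerator of the fold, and at 5.57 to 7.42 and 7.76 to 10.5 points with each library left out. The difference from the 3 other ends was -1.47 points at a log2 fold of at least 1 and -0.82 at a −log10 p of at least 5, and -0.17 to 1.25 with each library left out. With close peaks counted once it was 0.95 ± 0.66 points and positive in 4 of 4 libraries. With libraries taken singly it was 1.05 points and positive in 2 of 4. The difference between strands was -4.98 points with close peaks counted once, 17.6 with the read minimum, 4.46 and positive in 3 of 4 libraries at a log2 fold of at least 1, and 3.44 to 7.09 with each library left out. The causes were not tested. No p could pass the threshold in this design, so none speaks for stability. Reproducible regions numbered 47 and runs of at least 3 regions 5 when 2 of 4 libraries sufficed, and 37 to 41 and 4 to 5 when 1 library was dropped and 2 of those kept sufficed. Without library 3 there were 41 regions and 5 runs, and without library 4 there were 5 runs. A stricter p threshold or a call in all 4 libraries lowered the main counts of 27 regions and 3 runs. A −log10 p of at least 5 left 18 regions and 2 runs, and asking for all 4 libraries left 19 and 2. A log2 fold of at least 1 gave 29 and 3, and an overlap of at least 20 bases gave 30 and 4. The mean log2 fold of the 19 regions, 5.13, was 4.99 with the width-weighted mean and 5.07 to 5.17 with each library left out. Of 95 recomputed values of single regions, 94 moved by less than 1 SD and plus 11 moved to 5.12 with the width-weighted mean. This count does not speak for stability. Leaving out library 1 or 2 cannot move a mean of 3 samples by 1 SD. A region with 1 peak per library keeps its value under the width-weighted mean. Mean r over pairs, 0.75, was 0.39 where both peaks had a −log10 p of at least 3, and 0.73 to 0.78 with each library left out. The settings for runs, for agreement, for close peaks at the other ends and for the read minimum outside the comparison with the genome were chosen after seeing the data. Depth limits folds over 1 input read. Among enriched peaks with recovered reads, 30.8%, 49.3%, 68.3% and 37.5% had 1 input read here in libraries 1 to 4. Over the whole series these shares were 27.8%, 34.2%, 57.3% and 57.5%.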

Other observations

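Merging all listed peaks of the stretch, enriched or not, gave 1331 regions, of which 1151 were listed in 1 library, 812 of them in library 2, and 40 were listed in all 4. Of these 40, 24 overlapped a reproducible region. The other 16 were picked out after their values were seen. The lowest lay at 79478950 to 79479030 on the minus strand, with log2 folds of -2.20, -2.32, -1.81 and -2.31 in libraries 1 to 4, a mean of -2.19 ± 0.13 (SD, n = 3). It was the only one of the 40 with a mean below 0, and its 4 libraries lay close together. Peaks below input carry a deposited −log10 p of 0, so this loss was not tested. A nearby region on the same strand, at 79477308 to 79477522, had -0.68, 0.38, -0.18 and 2.13, on both sides of input. At 80036457 to 80036676 on the minus strand the values were 0.08, 0.94, -0.33 and 1.39. Both these regions of all 4 lists stayed below the fold of 8 in every library.

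A pair of plus strand regions at 78063960 to 78064139 and 78064156 to 78064373 was above input in all 4 libraries without being called reproducible. They had log2 folds of 4.47, 5.27, 3.67 and 3.54 and of 4.25, 4.94, 4.67 and 3.002. Every one of these reached the fold of 8. On the minus strand, a region at 76798107 to 76798356 spread from 5.62 in library 1 to 2.67 in library 3.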
